A study of Mus musculus with 50 samples.

Results

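Bile acids are made from cholesterol in hepatocytes, and the 10 genes described here carry out or control that synthesis and move bile acids in and out of the cell. They were the rows of a deposited count table whose gene symbol was Cyp7a1, Cyp8b1, Hsd3b7, Cyp27a1, Cyp7b1, Baat, Slc10a1, Abcb11, Nr1h4 or Nr0b2, 10 of 45792 rows. RNA-seq had been performed on 50 liver or liver tumour tissues of male C3H/He mice, a strain prone to spontaneous liver tumours, harvested at 48 weeks. Mice were fed a control diet or the ALIOS diet, an American lifestyle diet rich in trans-fat and given with fructose water. The 6 groups are called control liver (12 libraries) and ALIOS liver (11) for non-tumour tissue, ALIOS tumour (13) and control tumour (1) for spontaneous tumours, and control DEN tumour (5) and ALIOS DEN tumour (8). DEN mice had also received diethylnitrosamine, a liver carcinogen, at a dose and time not given in the sources used here. No non-tumour liver of a DEN mouse was among them, so every DEN tumour was compared with livers of mice without DEN, and tumour and DEN cannot be told apart in those comparisons. The labels do not say which tumour and which liver came from the same mouse, and a tumour was a piece of whole tissue, so p-values measure the spread between these tissues.

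In the classic route, Cyp7a1 adds the first hydroxyl group to cholesterol and sets the rate, Hsd3b7 acts next, and Cyp8b1 adds the hydroxyl that turns the product into cholic acid. In the alternative route, Cyp27a1 and then Cyp7b1 hydroxylate first, and Baat joins the finished acids to taurine or glycine. Slc10a1 (NTCP) takes bile acids up from the blood and Abcb11 (BSEP) exports them into bile, while Nr1h4 (FXR) is the bile acid receptor and Nr0b2 (SHP) is its target and a repressor of Cyp7a1.

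Total counts per library ran from 23798251 to 45751398, with a median of 32312653. Levels are given as CPM, counts per 1000000 reads after TMM scaling over 49 libraries. The ALIOS tumour T1 was left out of all comparisons, since 5 kidney tubule genes made up 44792 CPM of its library and at most 24.8 CPM of any other. Levels of T1 and these kidney sums are counts per 1000000 reads without TMM scaling. In the other tumours a list of 10 hepatocyte marker genes summed to medians of 208417 to 224830 CPM per group, the last from the single control tumour. These lay above the medians of 133071 CPM in control livers and 118262 CPM in ALIOS livers. But T2, T3, T6, T23, T24 and T25 held 93826 CPM to 146289 CPM, within the range of ALIOS livers (87754 CPM to 159583 CPM). No marker of that list was at 0 across a whole group. Less RNA per cell and fewer cells of a type cannot be told apart in such tissue. The ALIOS DEN tumour T24 stood apart in the markers of liver zones, with 17552 CPM of Glul, a central vein gene, where the highest of the 23 livers had 1329 CPM, and 0.249 CPM of the portal gene Cyp2f2. Counts of called members and of hepatocyte and zone markers in comparisons with these tumours are therefore also given without it.

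Members of the pathway lay on 8 autosomes of GRCm38 (Gencode M21). Cyp7a1 (chromosome 4, 6265612 to 6275633), Baat (chromosome 4, 49489422 to 49506557) and Nr0b2 (chromosome 4, 133553376 to 133556536) shared 1 of them. Cyp8b1 is a gene of 1 exon (chromosome 9, 121914356 to 121916305), and Abcb11 had 31 exons (chromosome 2, 69238282 to 69342616). The exons of Hsd3b7 (chromosome 7, 127800604 to 127803802) overlapped those of Gm49388 on the same strand and of 9430064I24Rik on the opposite strand. Neither of these had a row in the count table, and the strand option of the counting was not given in the sources used here, so Hsd3b7 could hold reads of its neighbours. The other members were Cyp27a1 (chromosome 1, 74713574 to 74737892), Cyp7b1 (chromosome 3, 18071950 to 18243338), Slc10a1 (chromosome 12, 80953183 to 80968705) and Nr1h4 (chromosome 10, 89454234 to 89533585).

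The RefSeq promoter table (GRCm38.p6) held 8 start sites for 7 of the 10 members. Entries for Cyp7a1, Cyp7b1 and Baat were not used here. The 250 bases before the start are shown for 3 genes that fell in tumours, Cyp8b1, Abcb11 and Slc10a1, and for Nr0b2, the member that edgeR called in no tumour comparison. The windows were chr9:121916306-121916555, chr2:69342617-69342866 and chr12:80968706-80968955 on the minus strand and chr4:133553126-133553375 on the plus strand. Capitals mark matches to the motifs described after the sequences.
Cyp8b1: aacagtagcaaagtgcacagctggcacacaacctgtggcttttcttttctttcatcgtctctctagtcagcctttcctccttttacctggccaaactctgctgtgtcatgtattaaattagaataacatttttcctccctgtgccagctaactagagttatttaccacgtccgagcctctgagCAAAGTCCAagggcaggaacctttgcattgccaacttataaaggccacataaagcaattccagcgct
Abcb11: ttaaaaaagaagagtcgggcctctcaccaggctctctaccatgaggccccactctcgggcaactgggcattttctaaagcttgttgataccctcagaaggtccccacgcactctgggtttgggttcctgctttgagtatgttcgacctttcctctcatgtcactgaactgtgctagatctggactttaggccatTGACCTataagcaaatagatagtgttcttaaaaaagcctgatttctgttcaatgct
Slc10a1: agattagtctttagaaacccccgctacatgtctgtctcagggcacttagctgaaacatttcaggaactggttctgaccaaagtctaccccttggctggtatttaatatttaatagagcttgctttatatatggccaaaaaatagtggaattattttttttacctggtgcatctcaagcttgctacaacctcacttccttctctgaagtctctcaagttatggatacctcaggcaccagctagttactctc
Nr0b2: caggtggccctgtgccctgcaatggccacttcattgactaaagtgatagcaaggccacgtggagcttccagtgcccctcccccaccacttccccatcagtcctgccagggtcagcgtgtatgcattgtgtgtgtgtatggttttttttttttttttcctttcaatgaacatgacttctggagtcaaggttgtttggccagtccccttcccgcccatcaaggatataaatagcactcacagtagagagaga

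4 motifs were searched on both strands of the 8 windows. The nuclear receptor half-site AGGTCA was in 3 of 8 windows, at -56 in Abcb11, at -214 in Nr1h4 and at -87 of a second Slc10a1 start, and in 14.02% of 32851 RefSeq promoters. The HNF4 site CAAAGTCCA was in the Cyp8b1 window at -67 and in 0.384% of promoters. The HNF1 half-site GTTAAT was at -40 of the Nr1h4 start and in 6.43% of promoters. CAAGGTCA, the extended half-site of NR5A2, which holds AGGTCA within it, was in none of the 8 windows and in 1.33% of promoters. Positions count back from the transcription start, and a match describes letters only.

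Non-tumour livers expressed all 10 members. Per kilobase of exon, the uptake transporter Slc10a1 was highest in control livers, at 353 ± 78.2 CPM per kb (SD, n = 12), and the repressor Nr0b2 lowest, at 22.9 ± 13.2. Between them came Cyp7b1 (221 ± 114 CPM per kb), Cyp27a1 (164 ± 25.8), Cyp8b1 (153 ± 36.3), Baat (151 ± 16.7), Hsd3b7 (136 ± 36.9), Abcb11 (95.1 ± 26.4), Cyp7a1 (83.6 ± 55.8) and Nr1h4 (61.5 ± 6.20). Each neighbouring pair from Cyp7b1 to Nr1h4 lay closer than the larger of its SDs except Hsd3b7 and Abcb11. In ALIOS livers Slc10a1 was again highest (352 ± 80.1 CPM per kb, n = 11) and Nr0b2 lowest (28.8 ± 13.9), with Cyp7b1 at 125 ± 65.8, Cyp27a1 at 160 ± 28.0 and Cyp8b1 at 154 ± 59.4. Baat and Nr1h4 had coefficients of variation of 11.03% and 10.1% across control livers, while those of Cyp7a1, Cyp7b1 and Nr0b2 were 66.7%, 51.6% and 57.7%.

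**Figure D1:**
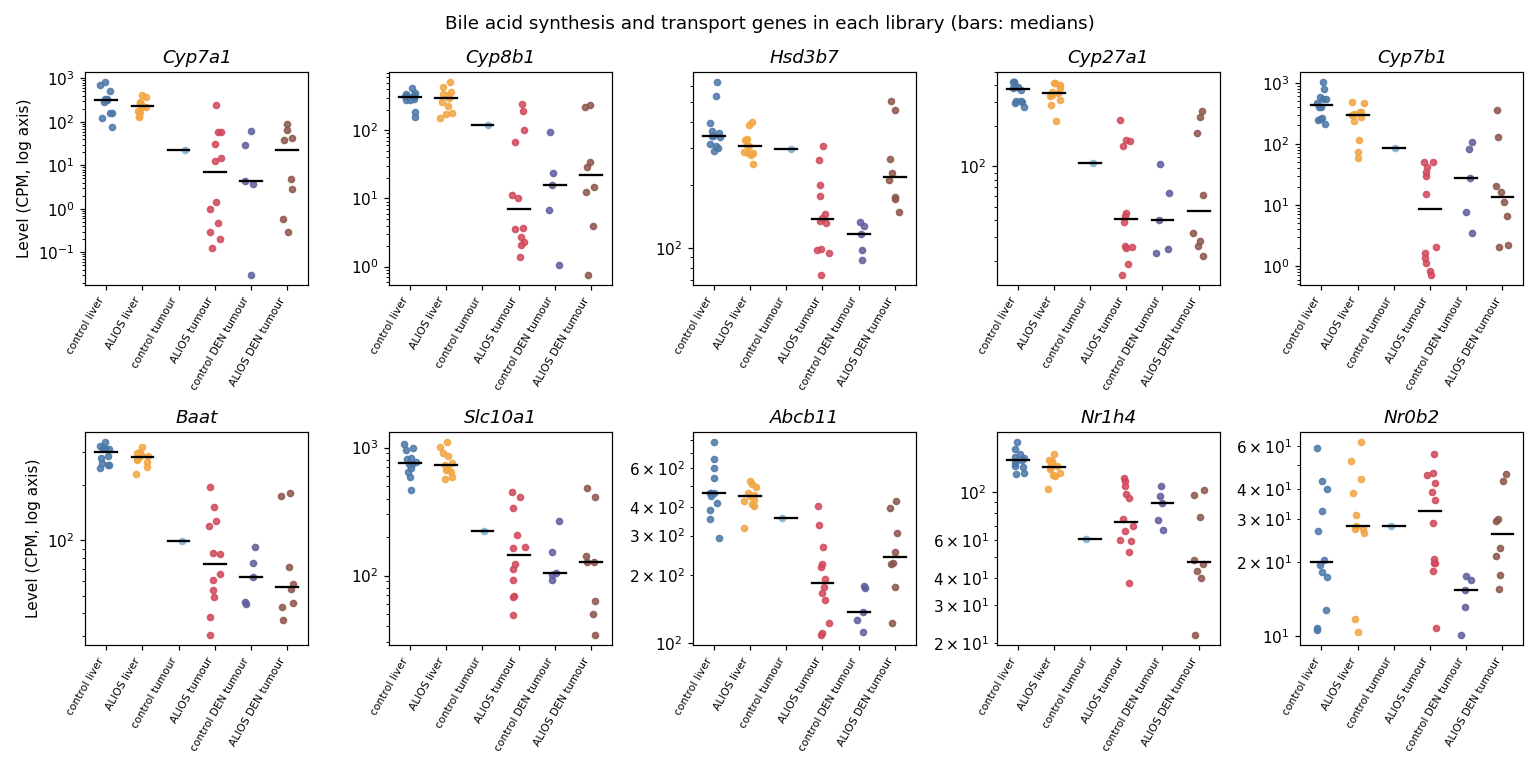
Level of each gene in CPM (log axis) in every library, by group, with black bars at the group medians and 1 point per library. Livers of both diets overlap in all 10 panels, and the tumours spread from 0.0297 CPM to 245 CPM in Cyp7a1.

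Whether the ALIOS diet changed these genes in non-tumour liver was tested with 11 against 12 livers. None of the 10 members lay without overlap between the diets, where 0.0802% of genes did, and none passed an adjusted p of 0.05 in edgeR's quasi-likelihood test, where 11.2% of 13723 genes did, although 3 members had an unadjusted p under 0.05 and DESeq2 called 1. The lowest adjusted p belonged to Cyp7b1, the oxysterol hydroxylase. Its levels ran from 213 CPM through a median of 439 CPM to 1047 CPM in control livers and from 59.7 CPM through 297 CPM to 491 CPM in ALIOS livers. The groups overlapped, and 3 of 11 ALIOS livers lay below all control livers. The log2 fold change of Cyp7b1 was -0.85 ± 0.32 (SE), with an adjusted p of 0.0842 in edgeR and 0.0435 in DESeq2.

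Cyp7a1 ranged from 77.7 CPM to 847 CPM in control livers, with a median of 319 CPM, and from 132 CPM to 416 CPM in ALIOS livers, with a median of 234 CPM. All ALIOS livers lay within the control range, and the log2 fold change was -0.56 with a 95% interval from -1.21 to 0.09 (edgeR, adjusted p = 0.241). Of the ALIOS livers, 9 of 11 lay below the control median. Cyp8b1 (-0.01, interval -0.39 to 0.37), Slc10a1 (-0.03, -0.29 to 0.24), Cyp27a1 (-0.06, -0.26 to 0.14) and Baat (-0.09, -0.22 to 0.04) had narrower intervals around small log2 differences. Hsd3b7 (-0.28, -0.52 to -0.04) and Nr1h4 (-0.15, -0.27 to -0.02) had intervals below 0 but adjusted p-values of 0.108 and 0.122. Abcb11 (-0.16, -0.41 to 0.10) and Nr0b2 (0.32, -0.30 to 0.94) completed the list. Over the members the median log2 fold change was -0.12, and over all genes tested it was -0.02.

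Of a list of 46 other genes of bile acid handling, 41 could be tested for diet in liver, and 3 rose and 1 fell. That is 9.76% of the list, below the 11.2% of all genes, so nothing is read from the count itself. The basolateral exporter Abcc4 (MRP4) rose by 0.85 ± 0.18 on the log2 scale (adjusted p = 0.00579), the drug exporter Abcb1a by 1.11 ± 0.27 (0.0122) and Slc51b, a subunit of the basolateral OST exporter, by 1.05 ± 0.29 (0.0214, all edgeR). Over the 49 libraries the median levels were 2.14 CPM for Abcc4, 16.6 CPM for Abcb1a and 1.38 CPM for Slc51b. Slc51a, the other OST subunit, had no counts in any of the 12 control livers, though it was not at 0 in all ALIOS livers. Fgfr4, the hepatocyte receptor for the gut hormone FGF15, fell by 0.50 on the log2 scale (adjusted p = 0.00522). None of the 14 other synthesis enzymes was called, of which 13 were tested. Markers of macrophages moved with the diet as well, 5 of 7 rising, and their summed level was 171 to 457 CPM in control livers and 254 to 950 CPM in ALIOS livers. Its part in these results was not tested.

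Spontaneous tumours and livers of ALIOS fed mice were compared next, 12 tumours against 11 livers. Of the members, 9 of 10 were lower in tumours and none was higher in edgeR's test. Of all 14183 genes tested 25.9% were called lower and 26.9% higher, 52.8% in all. The median log2 fold change was -1.84 over the members and 0.01 over all genes. The levels of 3 members did not overlap between tumours and livers, Cyp7b1, Baat and Slc10a1, where 3.52% of all genes lay lower without overlap.

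Both enzymes of the alternative route fell. Cyp7b1 showed the largest difference of the 10, with 0.706 CPM to 50.0 CPM in tumours (median 8.59 CPM) against 59.7 CPM to 491 CPM in ALIOS livers. The highest tumour was below the lowest liver. The log2 fold change was -3.82 ± 0.73 (SE, adjusted p = 0.000138). Cyp27a1, a mitochondrial sterol hydroxylase, ran from 15.6 CPM to 223 CPM in tumours, with a median of 40.9 CPM, and from 218 CPM to 419 CPM in livers. Only the tumour T2 reached the range of the livers, and the log2 fold change was -2.18 ± 0.41 (adjusted p = 0.000105).

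The classic route fell too, but unevenly between tumours. Cyp7a1 was at 0.127 CPM in T13, a count of 4, and at 245 CPM in T5, with a median of 7.14 CPM, while ALIOS livers held 132 CPM to 416 CPM. T5 was within the liver range and the other 11 tumours were below it (log2 fold change -2.76 ± 0.90, adjusted p = 0.0126). Cyp8b1 ranged from 1.39 CPM to 247 CPM, with a median of 6.92 CPM, against 152 CPM to 522 CPM in livers, and T2 and T6 were within the liver range (-2.47 ± 0.78, adjusted p = 0.0102). Hsd3b7 fell less, by 1.01 on the log2 scale (SE 0.19, adjusted p = 0.000133), with 73.7 CPM to 309 CPM in tumours and 252 CPM to 400 CPM in livers.

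Conjugation and transport were lower as well. The levels of Baat were 30.4 CPM to 195 CPM in tumours (median 74.7 CPM) and 228 CPM to 323 CPM in livers, without overlap, at a log2 fold change of -1.66 ± 0.24 (adjusted p = 5.64e-06). Slc10a1, the uptake transporter, had 48.9 CPM to 453 CPM in tumours (median 144 CPM) and 567 CPM to 1110 CPM in livers, again without overlap (-2.03 ± 0.32, adjusted p = 1.61e-05). Abcb11, the export pump, fell by 1.10 on the log2 scale (SE 0.18, adjusted p = 3.31e-05), and its tumours (108 CPM to 404 CPM) overlapped with the livers (324 CPM to 525.7 CPM).

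The 2 nuclear receptors differed from each other in this test. Nr1h4, the bile acid receptor, fell by 0.71 on the log2 scale (SE 0.15, adjusted p = 0.000354), from a median of 132 CPM to 72.7 CPM. Nr0b2, its target, had 10.7 CPM to 55.8 CPM in tumours and 10.4 CPM to 62.3 CPM in livers. The ranges nearly coincided, and the log2 fold change of -0.02 had an interval from -0.60 to 0.55 (adjusted p = 0.955). Whether the difference between the members is itself beyond their spread was not tested.

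**Figure D2:**
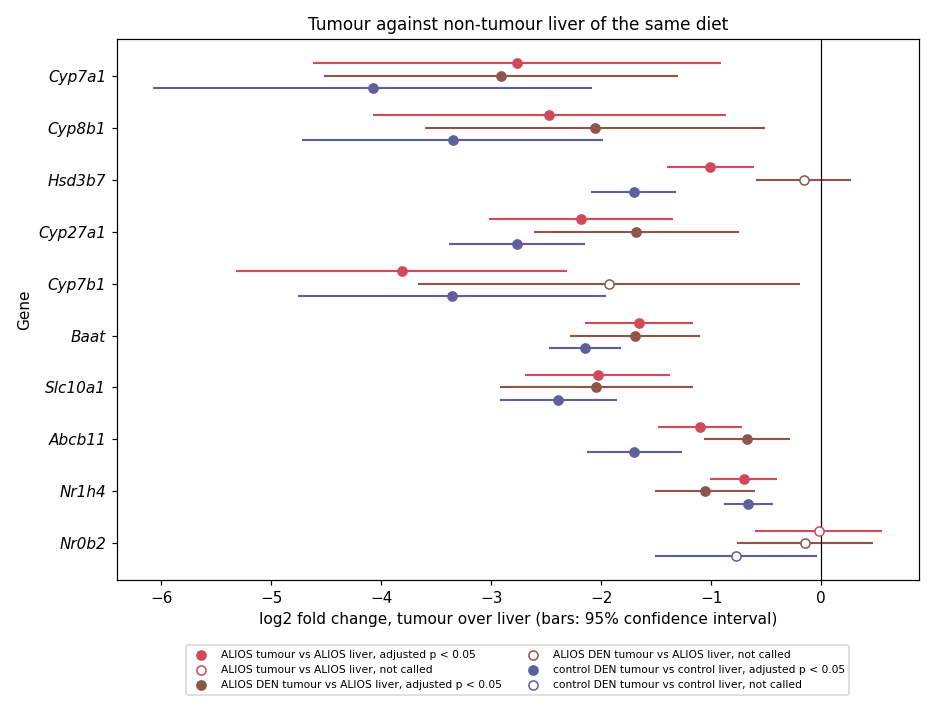
Log2 fold changes of the 10 genes, tumour over non-tumour liver of the same diet, in 3 comparisons, with bars for 95% confidence intervals and filled points for an adjusted p under 0.05 in edgeR. All points but those of Nr0b2, and of Cyp7b1 and Hsd3b7 in ALIOS DEN tumours, are filled and lie below 0.

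DEN tumours on the ALIOS diet were set against the same 11 ALIOS livers, so this comparison shares its controls with the one before. In 8 tumours, 7 of 10 members were lower and none higher, where 19.8% of 14434 genes were called lower and 27.7% higher, 47.5% in all. Cyp7a1 was at 0.287 CPM to 89.2 CPM, with a median of 22.1 CPM, and every tumour was below every liver (log2 fold change -2.91 ± 0.77, adjusted p = 0.00439). Baat (-1.69 ± 0.28, 7.98e-05), Slc10a1 (-2.05 ± 0.42, 0.000575) and Nr1h4 (-1.06 ± 0.22, 0.000598) did not overlap with livers either. That made 4 members without overlap, against 5.7% of all genes that were lower in this way.

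Cyp27a1 (-1.68 ± 0.45, adjusted p = 0.00456), Cyp8b1 (-2.06 ± 0.74, 0.028) and Abcb11 (-0.67 ± 0.19, 0.00606) were lower with overlapping levels. Cyp8b1 had 0.746 CPM in T24 and 234 CPM in T25, with a median of 21.8 CPM. Cyp7b1 ran from 2.06 CPM to 356 CPM with a median of 13.5 CPM, and 6 of 8 tumours lay below all livers, but the adjusted p of its log2 fold change of -1.93 ± 0.83 was 0.0628 in edgeR, 0.026 in DESeq2 and 0.0453 when all groups entered the fit. Hsd3b7 was at 149 CPM to 504 CPM in these tumours, around the liver range of 252 CPM to 400 CPM (-0.16, interval -0.59 to 0.27, adjusted p = 0.546). Nr0b2 had a log2 fold change of -0.14 (interval -0.76 to 0.47). Without T24 the members called lower were still 7, where 3283 genes in all were called lower and 4327 higher. Cyp7a1 was then at -3.36 and Cyp8b1 at -1.87 on the log2 scale.

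On the control diet, 5 DEN tumours were compared with 12 control livers, and 9 of 10 members were lower, where 24.4% of 14731 genes were called lower and 27.3% higher, 51.7% in all. The same 9 members did not overlap between the groups, against 11.6% of all genes lower without overlap. Cyp7a1 was at 4.35 CPM in T17, 0.0297 CPM in T18 (1 count), 62.3 CPM in T19, 29.9 CPM in T20 and 3.81 CPM in T21. All 5 were below the lowest control liver at 77.7 CPM, and the log2 fold change was -4.08 ± 0.95 (adjusted p = 0.00139). Cyp8b1 was at 6.68, 1.04, 95.1, 24 and 15.6 CPM in the same order, and the lowest control liver had 156 CPM (-3.35 ± 0.65, adjusted p = 0.000273). T19 held the highest level of Cyp7a1 and of Cyp8b1, and without it their log2 fold changes were -5.15 and -4.62.

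Cyp7b1 was at 7.61 CPM in T17, 3.44 CPM in T18, 106 CPM in T19, 27.9 CPM in T20 and 82.9 CPM in T21, below the lowest control liver at 213 CPM (-3.35 ± 0.67, adjusted p = 0.000337). Cyp27a1 had 24.6, 22.9, 104, 63.1 and 40.1 CPM in that order, where control livers began at 277 CPM (-2.77 ± 0.30, adjusted p = 3.02e-07). Hsd3b7 had 87.5, 97.1, 133, 126 and 117 CPM against 292 CPM or more in livers (-1.70 ± 0.18, adjusted p = 3.26e-07). In this group Hsd3b7 was low in each tumour, while in ALIOS DEN tumours it was within, above and below the liver range.

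Baat (-2.15 ± 0.15, adjusted p = 1.37e-09), Slc10a1 (-2.39 ± 0.25, 2.71e-07), Abcb11 (-1.70 ± 0.21, 1.32e-06) and Nr1h4 (-0.66 ± 0.11, 3.79e-05) were also lower in all 5 tumours. Nr0b2 was at 10.0, 13.1, 17.6, 16.9 and 15.4 CPM in T17 to T21, near the low end of the control livers (10.6 CPM to 58.9 CPM). Its log2 fold change of -0.78 ± 0.35 had an adjusted p of 0.072 in edgeR and 0.0437 in DESeq2.

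The single spontaneous tumour of a control diet mouse, T7, gave no replicate check. Its level was below all 12 control livers for 7 members and within their range for Hsd3b7 (298 CPM), Abcb11 (359 CPM) and Nr0b2 (28.3 CPM). Cyp7a1 was at 22.6 CPM and Cyp7b1 at 83.9 CPM.

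Other genes of the pathway list shared the direction in part. In spontaneous ALIOS tumours 22 of 42 tested were lower and 4 higher, in ALIOS DEN tumours 21 of 43 lower and 4 higher (24 and 5 without T24), and in control DEN tumours 23 of 43 lower and 7 higher. Of the list tested, 52.4%, 48.8% and 53.5% were lower, where 25.9%, 19.8% and 24.4% of all genes were. Higher were 9.52%, 9.3% and 16.3% of the list, and 26.9%, 27.7% and 27.3% of all genes. Among the synthesis enzymes 11 of 13, 9 of 14 and 9 of 14 were lower. Slc27a5, which activates bile acids before conjugation, had a log2 fold change of -1.61 in spontaneous tumours (edgeR, adjusted p = 3.39e-07) and of -1.72 in control DEN tumours (5.86e-09). Akr1d1, the reductase that shapes the sterol ring, had one of -2.22 in ALIOS DEN tumours (8.97e-07) and of -2.28 in control DEN tumours (2.27e-07).

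Akr1c14, the reductase that acts after it, had log2 fold changes of -1.27 and -1.46 in the same comparisons (adjusted p = 9.21e-07 and 3.42e-08). Scp2, a peroxisomal thiolase and sterol carrier, fell by 1.29 (adjusted p = 1.95e-07) and Cyp2c70, which makes muricholic acids in mice, fell by 2.04 (2.81e-07) in spontaneous tumours, and Hsd17b4, a peroxisomal enzyme of side chain oxidation, fell by 0.97 in ALIOS DEN tumours (1.08e-06). A few genes rose instead. Vdr, the vitamin D receptor that also binds lithocholic acid, was higher by 2.35 ± 0.38, 2.06 ± 0.36 and 3.40 ± 0.37 on the log2 scale in the 3 comparisons (adjusted p = 2.24e-05, 0.000112 and 3.11e-07).

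The exporter Abcc4 rose by 2.18 ± 0.55 in ALIOS DEN tumours (adjusted p = 0.0031), by 0.75 ± 0.25 without T24 (0.0177), and by 2.18 ± 0.27 in control DEN tumours (1.78e-06). Abcb1a rose by 0.94 ± 0.20 in spontaneous tumours (0.000507) and by 2.20 ± 0.34 in control DEN tumours (2.6e-05). The oxysterol 7-alpha-hydroxylase Cyp39a1 rose by 1.74 ± 0.35 in spontaneous tumours (0.000254), and the 25-hydroxylase Ch25h by 2.76 ± 0.56 in ALIOS DEN tumours (0.000545). Median levels over the 49 libraries were low for Vdr (0.50 CPM), Ch25h (0.22 CPM) and Abcc4 (2.14 CPM). Those of Abcb1a and Cyp39a1 were 16.6 CPM and 40.9 CPM.

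Other hepatocyte genes did not move with the members as 1 block. Of all genes tested 26.9%, 27.7% and 27.3% were higher in the 3 comparisons, and 25.9%, 19.8% and 24.4% were lower. Of the 10 hepatocyte markers 5 were higher in each of the 3 comparisons and 2, 1 and 1 were lower, with 6 higher and 1 lower in ALIOS DEN tumours without T24. Alb, the gene of albumin, was higher by 0.79 ± 0.20 in spontaneous tumours, 0.79 ± 0.28 in ALIOS DEN tumours and 0.92 ± 0.20 in control DEN tumours on the log2 scale (edgeR, adjusted p = 0.00247, 0.026 and 0.000717). Of 8 central vein markers 6 were lower in spontaneous tumours and 8 in control DEN tumours, but in ALIOS DEN tumours 1 was lower and 2 were higher. Without T24 none was higher and 3 were lower there, and the summed level was below that of all ALIOS livers in 6 of the other 7 tumours, with a median of 362 CPM. Of 6 portal markers 4, 3 and 5 were lower, in the order of the comparisons, and 5 in ALIOS DEN tumours without T24. The part of liver zones in the members' levels was not tested.

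Tumours differed in how many members left the liver range. The share of all genes outside that range in each tumour, T7 included, is not given here. These numbers are therefore a description only. Of the 12 spontaneous ALIOS tumours, 8 had 9 of 10 members below the lowest ALIOS liver, and the others were T3 with 8, T5 with 7, T6 with 6 and T2 with 4. Among ALIOS DEN tumours 5 had 9 members below, T24 had 8, and T23 and T25 had 4 each. In control DEN tumours the number was 9 in 4 tumours and 10 in T17. T23 and T25 also held 1 member above the highest ALIOS liver, Hsd3b7 at 504 CPM and 456 CPM, where the highest liver had 400 CPM.

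Levels of other cell types and zones varied over the same tumours. The 8 central vein markers summed to 4361 CPM in T2, 2693 CPM in T6, 3546 CPM in T23 and 5273 CPM in T25, and to 4692 CPM to 9608 CPM in ALIOS livers. The 7 macrophage markers summed to 474 CPM in T2, 454 CPM in T6, 562 CPM in T23 and 306 CPM in T25, all within the range of 254 CPM to 950 CPM of ALIOS livers. The macrophage sum was 306 CPM in T11 too, a tumour with 9 members below the livers. The part of these cells in the members' levels was not tested.

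T24 showed another arrangement. It had the highest Cyp7a1 of the ALIOS DEN tumours, at 89.2 CPM, and the lowest Cyp8b1 (0.746 CPM), Baat (36.7 CPM), Slc10a1 (34.03 CPM), Abcb11 (122 CPM) and Nr1h4 (21.7 CPM). Its Cyp27a1 was at 176 CPM, above 5 of the other 7. The central vein markers of T24 summed to 26431 CPM, and the highest sum in an ALIOS liver was 9608 CPM.

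**Figure D3:**
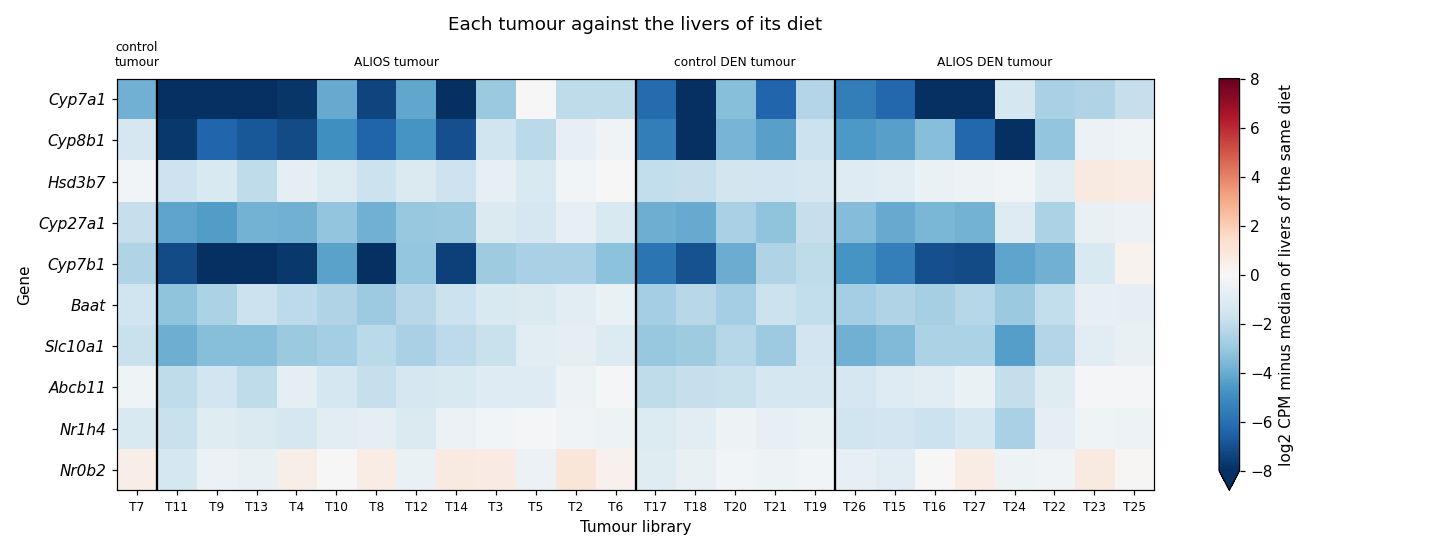
Log2 CPM of each gene (rows) in each of the 26 tumours (columns, by group) minus the median of non-tumour livers of the same diet, in blue where lower and red where higher and values beyond the end of the colour bar in its last colour. Cyp7a1, Cyp8b1 and Cyp7b1 hold the darkest cells, Nr0b2 stays pale, and T2, T6, T23 and T25 are among the palest columns.

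Comparing DEN with spontaneous tumours on the ALIOS diet (8 against 12, tumours used above), edgeR called none of the 10 members. No gene at all was called among 14845 (0%), although 1079 genes and 1 member had an unadjusted p under 0.05, and DESeq2 called 86 genes and no member. The intervals were wide for the enzymes, from -2.68 to 2.28 for Cyp7a1, from -1.86 to 2.56 for Cyp8b1 and from -0.23 to 3.88 for Cyp7b1, so differences of that size could not be seen. The member with the lowest p was Hsd3b7, at a median of 219 CPM in DEN tumours and 137 CPM in spontaneous tumours. Its log2 fold change of 0.79 ± 0.28 had an adjusted p of 0.367 in edgeR and of 0.0268 when all groups entered the fit. Slc10a1 (-0.08, interval -1.12 to 0.96) and Baat (-0.10, -0.87 to 0.67) were near 0. Without T24 no member was called either, and Cyp7a1 went from -0.20 to -0.66.

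Diet was also compared within DEN tumours, 8 on the ALIOS diet against 5 on the control diet, with tumours used in the comparisons above. No member was called by edgeR, where 2 of 14944 genes (0.0134%) were, while 3 members had an unadjusted p under 0.05 and DESeq2 called 1, Hsd3b7. This gene was higher in each ALIOS DEN tumour (149 CPM or more) than in each control DEN tumour (133 CPM or less). It was the 1 member whose groups did not overlap, where 0.288% of genes were higher without overlap. Its log2 fold change was 1.27 ± 0.31 (adjusted p = 0.235 in edgeR and 0.011 in DESeq2). Abcb11 had a median of 240 CPM against 138 CPM (0.87 ± 0.27, adjusted p = 0.387) and Nr0b2 26.2 CPM against 15.4 CPM (0.96 ± 0.27, adjusted p = 0.304). For these, 6 and 7 of 8 ALIOS DEN tumours were above all 5 control DEN tumours. Without T24 no member was called, and 14 genes in all were.

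Whether diet acted differently in DEN tumours and in liver was tested as the difference of the 2 diet effects. It was called for 2 of 10 members, both higher, where 1.04% of 15606 genes were called higher and 2.27% in either direction. For Hsd3b7 the difference was 1.54 ± 0.28 on the log2 scale (SE, adjusted p = 0.00629), with all 8 ALIOS DEN tumours above the control DEN tumours and a diet effect of -0.28 in liver. For Abcb11 it was 1.02 ± 0.27 (adjusted p = 0.0358), from a diet effect of -0.16 in liver and 0.87 in DEN tumours. The call of Abcb11 was lost without T17 (0.94, adjusted p = 0.0936), without T18 (0.98, 0.0747) and without T20 (0.0774), and likewise without a filter on low counts (0.056) and with all groups in 1 fit (0.0947). Without T24 both calls remained, at 1.53 and 1.12, where 329 genes in all were called higher. Of the other 8 members, Cyp27a1 had the lowest adjusted p (1.08 ± 0.54, adjusted p = 0.315), and the intervals were wide for Cyp7a1 (-1.04 to 3.38), Cyp8b1 (-0.67 to 3.20) and Cyp7b1 (-0.73 to 3.54).

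Genes of liver zones and of the clock were called in the same comparison. The difference was called for 5 of 8 central vein markers, with Glul at 4.81 ± 1.17 (edgeR, adjusted p = 0.0252), but without T24 for 1 of 8, with Glul at 2.51 ± 0.78 (adjusted p = 0.0558). Of 10 clock genes 3 were called, and 4 without T24. None of 43 genes of the pathway list tested was called by edgeR, though 11 had an unadjusted p under 0.05, DESeq2 called 2, and 3 were called without T24. Dbp, a clock output gene that can activate Cyp7a1, ran from 6.01 CPM to 171 CPM in ALIOS DEN tumours and from 85.3 CPM to 144 CPM in ALIOS livers, and the hour of sampling was not given in the sources used here. The part of these genes in the members' difference was not tested.

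**Figure D4:**
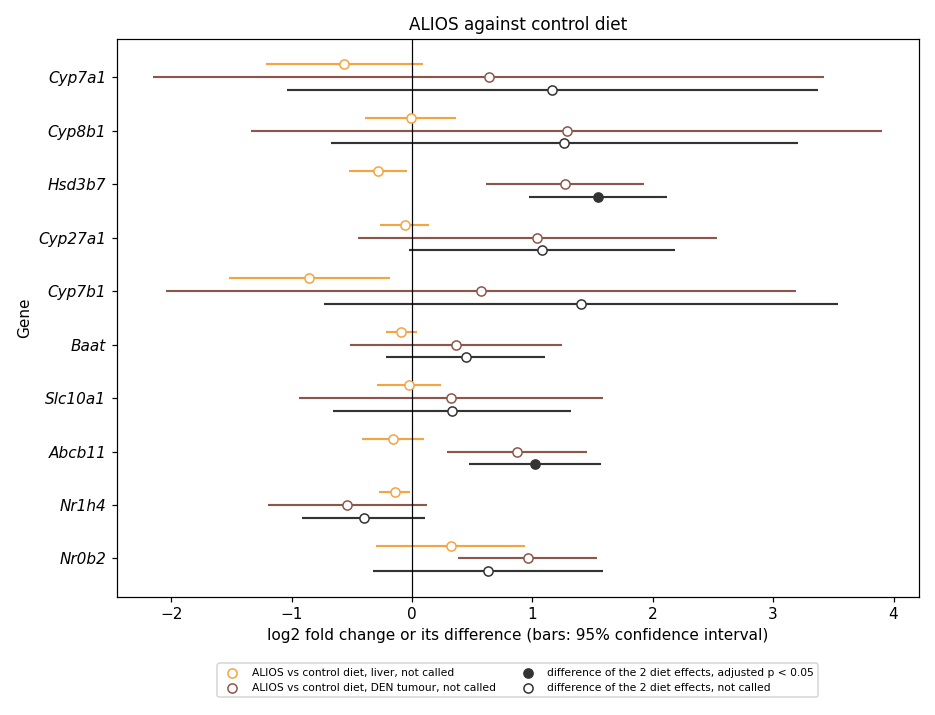
Log2 fold change of the ALIOS over the control diet in non-tumour liver and in DEN tumours, and the difference of these diet effects, for the 10 genes, with bars for 95% confidence intervals. Only the differences of Hsd3b7 (1.54) and Abcb11 (1.02) carry filled points, which mark an adjusted p under 0.05 in edgeR.

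How the members varied together was examined within groups on log2 CPM, for 4 pairs of genes in 3 groups, 12 correlations in all. Cyp7a1 and Cyp8b1, which share the classic route, showed no relation past the test in control livers (Pearson r = -0.37, permutation p = 0.24, Spearman rho = -0.17, p = 0.586, n = 12, adjusted p = 0.48) or in ALIOS livers (r = -0.20, permutation p = 0.55, rho = -0.10, p = 0.776, n = 11, adjusted p = 0.826). Without the 2 livers farthest from the median of Cyp7a1, r was -0.39 and -0.16. In spontaneous ALIOS tumours r was 0.89 (permutation p = 0.00013, rho = 0.80, p = 0.00292, n = 12, adjusted p = 0.00156), and 0.91 without T5 and T13. The levels were uneven. T2, T3, T5 and T6 had 68.5 CPM to 247 CPM of Cyp8b1 and the other 8 had 1.39 CPM to 11.2 CPM, with none between. Of Cyp7a1 the same 4 had 30.2 CPM to 245 CPM and the other 8 had 0.127 CPM to 14.6 CPM. Among these 8, r was 0.82 (permutation p = 0.0403) and rho 0.45 (p = 0.267), so the relation over all 12 rested in part on the split. The same 4 tumours had central vein sums of 2128 CPM to 4361 CPM, where the other 8 had 26.1 CPM to 698 CPM. Hepatocyte marker sums were 93826 CPM to 164612 CPM in the 4 and 181503 CPM to 264755 CPM in the 8. The part of such differences between tumours in the relation was not tested. Beyond that split no relation of Cyp7a1 with another gene is read in tumours.

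**Figure D5:**
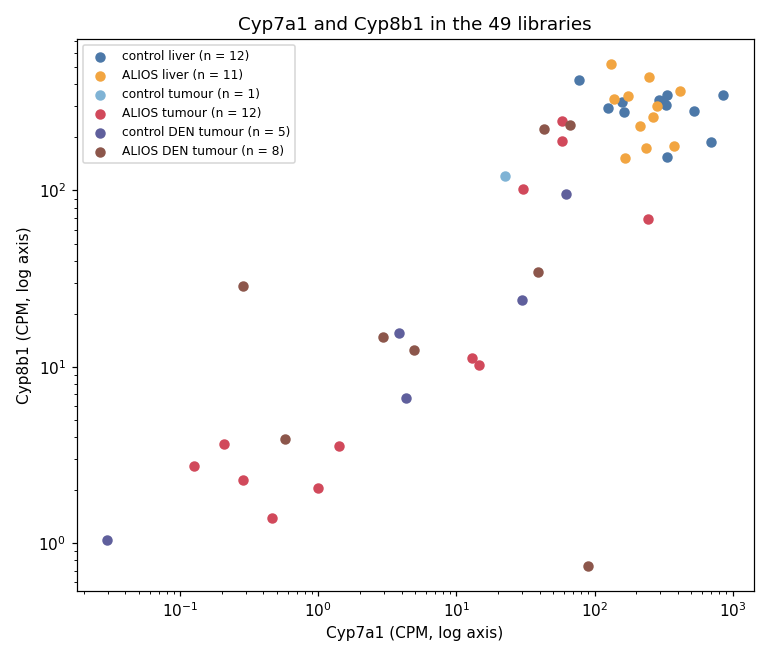
Cyp7a1 against Cyp8b1 in CPM (both axes log) in 49 libraries, coloured by group. Livers of both diets form a cloud at the upper right, and the tumours stretch from there to the lower left, with T24 below the rest at 89.2 CPM of Cyp7a1 and 0.746 CPM of Cyp8b1.

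Nr0b2 and Cyp7a1, repressor and target, had r = -0.09 in control livers (permutation p = 0.777, rho = -0.04, p = 0.905, adjusted p = 0.925) and r = -0.63 in ALIOS livers (permutation p = 0.0383, rho = -0.54, p = 0.095, adjusted p = 0.153). Without N16 and N22, the ALIOS livers with the least Nr0b2, r was -0.42 (permutation p = 0.263), so the relation rested in part on those. Nr0b2 and Abcb11, both targets of Nr1h4, had r = -0.44 in control livers (permutation p = 0.15, rho = -0.38, p = 0.216, adjusted p = 0.359), r = -0.07 in ALIOS livers (permutation p = 0.848, rho = -0.13, p = 0.713, adjusted p = 0.925) and r = 0.61 in spontaneous ALIOS tumours (permutation p = 0.0371, rho = 0.60, p = 0.0436, adjusted p = 0.153), and 0.34 without T11 and T13. Dbp and Cyp7a1 had r = 0.54 in control livers (permutation p = 0.068, rho = 0.28, p = 0.377, adjusted p = 0.204) and -0.30 without N11 and N12. In ALIOS livers it was 0.10 (permutation p = 0.778, rho = -0.01, p = 0.989, adjusted p = 0.925). Without N19 and N21 it was -0.67 (permutation p = 0.0466, adjusted p = 0.28). In spontaneous ALIOS tumours Cyp7a1 had r = 0.29 with Nr0b2 (permutation p = 0.364, adjusted p = 0.623) and r = 0.0042 with Dbp (permutation p = 0.989, adjusted p = 0.989). No correlation over all livers of a diet passed the adjustment. In tumours only that of Cyp7a1 and Cyp8b1 did.

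The genes whose log2 CPM followed the variable enzymes most closely over the 23 non-tumour livers are given as a description, among 13723 genes. For Cyp7b1 they were C8b (r = 0.94), Dpy19l3 (0.93), C8a (0.92), Pdilt (0.92) and Pde6h (0.91), of which C8a and C8b encode chains of a complement component. For Cyp8b1 they were Ackr2 (0.83), Agpat3 (0.77), Zfand6 (0.76) and Mis18a (0.74). Ackr2 lies 3281 bases from Cyp8b1 on the opposite strand of chromosome 9. No annotated gene overlapped Cyp8b1, and whether reads of the 2 genes mix was not tested. For Cyp7a1 they were Mgrn1 (0.80), Vav2 (0.79), Rpl22l1 (0.78), Myo18a (0.78) and Gorasp1 (0.78).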

How the data were processed

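The authors prepared mRNA libraries, mapped read pairs to mm10 with STAR and counted reads per Gencode gene with HTSeq, as the labels and the study's methods state; versions and the strand option were not given in the sources used here. The deposited file holds raw counts per gene for 50 libraries, without normalization. Groups were taken from the labels. The 10 members and the gene lists were chosen with earlier results of these data known.

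Counts were tested with edgeR 4.0.16 (filterByExpr, TMM, glmQLFit and glmQLFTest, limma 3.58.1, R 4.3.3), with only the compared groups in each fit, no covariates, and Benjamini-Hochberg adjustment over all genes tested in that comparison. A call is an adjusted p under 0.05. There were 7 comparisons, and those on the ALIOS diet share livers or tumours. CPM used TMM factors over 49 libraries, with a prior count of 2 on the log2 scale, and coordinates are of Gencode M21. Correlations used 2-sided permutation tests with 100000 resamples in scipy 1.17.1 (numpy 2.4.6, pandas 2.3.3, Python 3.11.15). DESeq2 1.42.0, other size factors, no filter, all groups in 1 fit and left-out libraries were tried as alternatives. The scripts were tested on simulated data. No libraries of a group were near copies, since the smallest chi-square per gene between any of them was 12.96, far above sampling noise.

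The named genes were all members, from a list of 46 other bile acid genes the 3 with the smallest adjusted p in each direction, and of the marker lists Alb, Glul, Cyp2e1, Dbp and Nr1d1 beside results that move with them. Cyp2f2 was added after its values were seen. For Cyp7a1, Cyp8b1 and Cyp7b1 the 5 genes with the highest correlation over livers were taken, of which 1 is not reported here. Counts are not independent molecules, since no molecular identifiers were used. Libraries held 23798251 counts or more, and the lowest levels of Cyp7a1 rest on 9 counts or fewer in 5 tumours.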

Additional observations from a re-analysis of the deposited data

Results flagged for a closer look

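The difference between ALIOS and control diet differed between DEN tumours and non-tumour livers for Hsd3b7 and Abcb11 by the interaction term itself, and for Abcb11 the call was not stable. The difference of the diet effects was 1.54 on the log2 scale for Hsd3b7 (edgeR, adjusted p = 0.00629, 8 of 8 ALIOS DEN tumours above all 5 control DEN tumours) and 1.02 for Abcb11 (adjusted p = 0.0358, 6 of 8 above). The call of Abcb11 was lost without a filter on low counts (adjusted p = 0.056), with all groups in 1 fit (0.0947) and without T17 (0.0936), T18 (0.0747) or T20 (0.0774). Of 8 central vein markers 5 were called higher in the same comparison, and 1 without T24, and their part was not tested.

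Each member's levels were also searched for a library far from the others of its group, but only in groups of 4 to 10 libraries. These were the control DEN and ALIOS DEN tumours, which gave 20 searches over the 10 members. No such library was found, where chance gives about 1. Livers and spontaneous tumours were not searched.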

How the results depend on the processing

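Of 760 fold changes of members under the alternatives, 713 kept their direction and side of the threshold, 14 lost and 7 gained a call and 26 reversed, and the cause was not tested. The count of members called moved as follows. With DESeq2 it was 1 for diet in liver, 8 in ALIOS DEN tumours, 10 in control DEN tumours and 1 for diet in DEN tumours. Over all genes DESeq2 called 2451, 7891, 8723 and 152 in that order. With all groups in 1 fit it was 8 in ALIOS DEN tumours, 1 for DEN against spontaneous tumours, 1 for diet in DEN tumours and 1 for the difference of diet effects. All genes called there were 7868, 403, 296 and 220. Without a filter on low counts the count of members was 1 for that difference too, and both times the lost member was Abcb11. Leaving out a library gave 1 to 2 for that difference. Livers and tumours share some numbers, and the 6 same-number pairs had correlations of -0.17 to 0.076. No known pair was at hand to compare, so these correlations alone cannot decide whether the numbers pair tissues. By the labels, other shared numbers joined different diets, as control liver N2 with ALIOS tumour T2 and ALIOS liver N17 with control DEN tumour T17. There the same number cannot mean the same mouse, so a shared number does not mark a pair. T15, T16, T22 and T23 among the 6 pairs were DEN tumours, set here against livers of mice without DEN. With the number as a block only same-number tissues entered. These were N13, N14, T13 and T14 for spontaneous tumours, and T15, T16, T22 and T23 with their same-number livers for ALIOS DEN tumours. In these smaller fits 4 members were called in spontaneous tumours (379 genes in all) and 3 in ALIOS DEN tumours (1664 genes). Nr0b2 was at 0.63 in the latter. Calls lost in these fits are among the 14 above.

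Signs of some fold changes near 0 turned. Cyp8b1 under diet in liver was 0.010 with all groups in 1 fit and -0.13 to 0.057 with a library left out, and Slc10a1 -0.076 to 0.022. Nr0b2 in spontaneous tumours was 0.014 without the filter and 0.027 without T9. In DEN against spontaneous tumours Baat was 0.016 and Slc10a1 0.036 with T1 kept, and -0.16 to 0.012 and -0.16 to 0.078 with T9 or T24 left out. Correlations turned too, some from far off 0. Without the 2 libraries farthest from the median, r of Dbp and Cyp7a1 went from 0.54 to -0.30 in control livers and from 0.10 to -0.67 in ALIOS livers, and that of Nr0b2 and Abcb11 from -0.07 to 0.27 in ALIOS livers. In ALIOS tumours r went from 0.29 to -0.048 for Nr0b2 and Cyp7a1 and from 0.0042 to -0.28 for Dbp and Cyp7a1. The latter was -0.012 with DESeq2 size factors.

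Over all genes, diet in liver had 1542 calls, 2451 with DESeq2 and 623 with all groups in 1 fit, of which 59.9%, 58.7% and 77.8% were higher. DEN against spontaneous tumours had 0, 86 and 403, diet in DEN tumours 2, 152 and 296, and the difference of diet effects 354, 646 and 220. Leaving out a library gave 949 to 2343 calls for diet in liver (2343 without N13, 949 without N17, 957 without N19), 0 to 14 for diet in DEN tumours (14 without T24) and 174 to 732 for the difference (732 without T24, 174 without T17, 191 without T18 or T20). The pathway list had 4, 7 and 2 calls for diet in liver. Depth limits Cyp7a1 in 5 tumours with 9 counts or fewer.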

Other observations

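The tumour T1, which entered no comparison, held 42.4 CPM of Cyp27a1, 94.9 CPM of Cyp7b1, 169 CPM of Nr1h4 and 17.1 CPM of Hsd3b7. The other members were at 1.63 CPM or less there, and Cyp7a1 and Cyp8b1 at 0.0667 CPM each. With T1 kept among the spontaneous tumours, 9 members were still called lower than in ALIOS livers, where 2624 genes in all were called lower and 4059 higher.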
